A study of Tachysurus vachellii with 6 samples.

Results

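The miR-181 family was measured in small RNA of extracellular vesicles prepared from livers of a freshwater fish, the darkbarbel catfish (Tachysurus vachellii, also called Pelteobagrus vachellii). Its members were taken by name: every listing of the deposited miRNA table called mir-181 after the species prefix, with any letter, arm or suffix. This gave 12 of 1088 listings, 8 of 874 distinct sequences and, once repeated listings were summed, 7 of 841 entries. The fish spent 4 h at 1 mg/L of dissolved oxygen (hypoxia, 3 libraries) or at 6.8 mg/L (normoxia, 3 libraries). Low oxygen was reached by sealing the tank and bubbling nitrogen, and all fish had been fasted beforehand. The labels give no strain, age or sex, and the sample titles name the liver without mentioning vesicles. Whether the libraries stem from different fish is not stated, so every p-value reflects the scatter of these libraries alone, which may be technical. The comparison asked which vesicle miRNAs differed after hypoxia.

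A miRNA is cut from a hairpin, and each side of the hairpin, the 5p and the 3p arm, can yield a mature strand. The strand loaded into an Argonaute protein selects target transcripts mainly through its seed, bases 2 to 8 from the 5′ end. In mammals the 5p strands of miR-181 are known for tuning T-cell receptor sensitivity and lymphocyte development, for damping NF-kB signalling in endothelium, and for roles in liver fibrosis and liver tumours. The 3p strands are the less studied, usually rarer side of the hairpin.

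The sequences are shown to tell the arms and forms apart, with the seed in capitals. The 5p entries shared the seed ACATTCA and were the following.
dre-miR-181a-5p: aACATTCAacgctgtcggtgagt
dre-miR-181b-5p_R+1: aACATTCAttgctgtcggtgggt
dre-miR-181c-5p_R+1 (1st listing): cACATTCAttgctgtcggtgggt
dre-miR-181c-5p_R+1 (2nd listing): cACATTCAttgctgtcggtggga
Counting positions from 1 at the 5′ end, the b form differed from the a form by A9T, C10T and A21G, all outside the seed. The c form differed from the b form by A1C, the base before the seed. Its listings differed from each other by T23A, the last base, and held the same value in every library, so they were joined and counted once. The a sequence was listed 3 times, as miR-181a of zebrafish (dre), miR-181a of common carp (ccr) and miR-181c of tilapia (oni), so the letters a and c in these names do not separate sequences cleanly.

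The 3p entries fell into seeds CCATCGA and TCACTGA.
dre-miR-181a-2-3p: aCCATCGAccgttgactgtacc
cpi-miR-181a-2-3p_R+1: aCCATCGAccgttgactgtacct
ccr-mir-181a-p3: aCCATCGAgtgttgagtgtacc
dre-miR-181b-3p: cTCACTGAtcaatgaatgcaaa
The cpi entry is the dre-miR-181a-2-3p sequence with 1 more base at its 3′ end. The ccr entry differs from dre-miR-181a-2-3p by C9G, C10T and C16G, in the part after the seed. How reads were shared out among such close sequences is unknown, so separate values of the a-2-3p forms, and of the b and c 5p forms, are uncertain. Across all 841 entries the 5p seed was held by 4 (0.476%), of which 3 were members, and the seeds CCATCGA and TCACTGA by 3 and 1, all members. The remaining entry with the 5p seed was predicted and stood outside the naming rule, PC-5p-95786_45, whose sequence aACATTCAacgttgtcggtgaga differs from the a form by C12T and T23A. It reached at most 2.00 CPM (counts scaled to a common library total by edgeR's TMM factors) and was left untested by the filter on low counts, and it is named after its values were seen.

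The family took 0.704% to 0.841% of the counts of a library. Its total abundance was 7589, 7449.8 and 8084 CPM in hypoxia replicates 1, 2 and 3 and 7821, 8617 and 7131 CPM in normoxia replicates 1, 2 and 3. The groups overlapped, with means of 7708 ± 333 and 7856 ± 744 CPM (SD, n = 3 each). In vesicle preparations, fewer vesicles of a type and less miRNA per vesicle cannot be told apart.

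The members spanned more than 3 orders of magnitude, and they are of like length (22 to 23 nt), so that levels were compared as CPM with no scaling by length. dre-miR-181a-5p ranked 30th of 841 entries by mean CPM, followed by dre-miR-181b-5p_R+1 (63rd), dre-miR-181a-2-3p (97th), dre-miR-181c-5p_R+1 (168th), dre-miR-181b-3p (325th), and cpi-miR-181a-2-3p_R+1 (397th), with ccr-mir-181a-p3 the rarest. The ranges over the 6 libraries of the first 4 did not touch those of their neighbours: 5299.6 to 6789.8, 1219.5 to 1576, 434 to 691 and 94.7 to 125.9 CPM. Those of the last 3 overlapped one another, at 0 to 22.7, 2.90 to 6.54 and 0 to 3.42 CPM, so their order was not resolved over all 6 libraries. In normoxia alone dre-miR-181b-3p, at 9.63 to 12.2 CPM, lay above the cpi entry (2.90 to 6.54 CPM) and the ccr entry (2.02 to 3.42 CPM). It was at 0 in hypoxia replicate 1. The most abundant 3p strand thus lay above the rarest 5p strand.

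**Figure D1:**
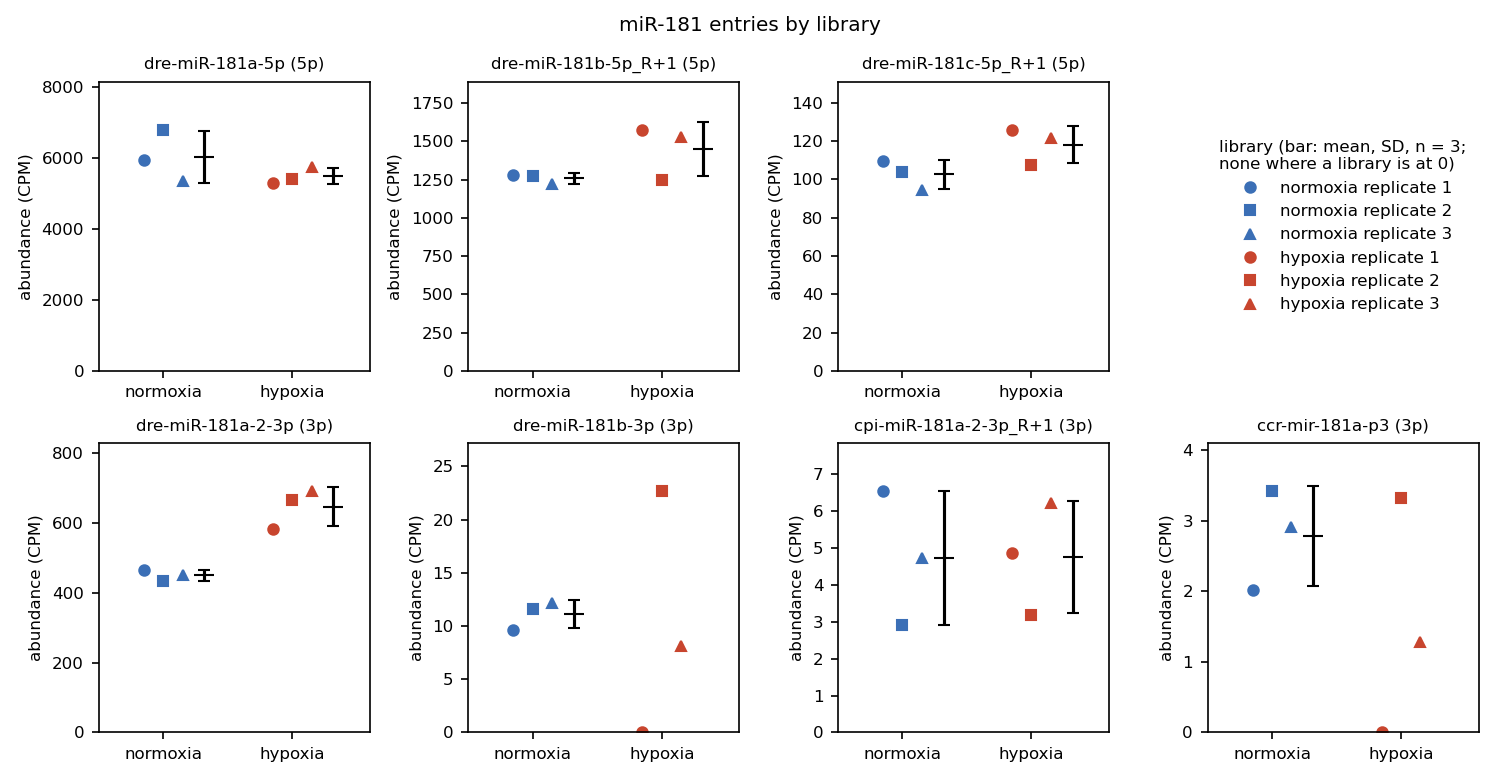
Abundance of each miR-181 entry (y axis, CPM, from 0) in the 3 normoxia and 3 hypoxia libraries, 5p arms in the upper row and 3p arms in the lower, with mean and SD where no library is at 0. The hypoxia libraries of dre-miR-181a-2-3p, at 583 to 691 CPM, all lie above those of normoxia at 434 to 466 CPM, while every other entry overlaps between groups.

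Of the 7 entries, all passed the filter and 0 were called by edgeR's quasi-likelihood test at an adjusted p of 0.05. Over all entries, 14 of 519 tested were called (2.7%), 8 higher (1.54%) and 6 lower (1.16%) in hypoxia, a split of 5 and 0 when libraries were scaled by total counts or by upper quartiles. At an unadjusted edgeR p of 0.05, 1 member passed, dre-miR-181a-2-3p, where 18.5% of all tested entries did. DESeq2 and limma-voom each called 1 member, the same strand, among 41 and 22 called of the 519 tested entries. Of the members, 4 had a fold above 1 and 3 below, with a median log2 fold change of 0.02 against -0.04 over all tested entries.

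dre-miR-181a-5p, the main mature strand of the family, did not pass. It measured 5299.6, 5399.9 and 5728 CPM in hypoxia replicates 1, 2 and 3, and 5944, 6789.8 and 5346 CPM in normoxia. Normoxia replicate 2 was the highest library and normoxia replicate 3 lay inside the hypoxia range. The log2 fold change, -0.14 ± 0.11 (SE), had an adjusted p of 0.541 (edgeR quasi-likelihood, Benjamini-Hochberg).

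dre-miR-181b-5p_R+1, which differs from the a form only outside the seed, stood at 1576, 1247 and 1527.5 CPM in hypoxia and at 1283, 1271 and 1219.5 CPM in normoxia. Hypoxia replicates 1 and 3 were above all normoxia libraries and hypoxia replicate 2 was within them. The log2 fold change of 0.20 ± 0.12 missed the threshold (adjusted p = 0.416, edgeR). Without hypoxia replicate 2 it was 0.32, still short of the threshold (adjusted p = 0.0888, edgeR), and adjusted p-values over all 16 alternatives ran from 0.0888 to 0.668.

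dre-miR-181c-5p_R+1, about an order of magnitude rarer than the b form and different from it in the first base, repeated its layout. It stood at 125.9, 107 and 121 CPM in hypoxia replicates 1, 2 and 3 and at 109, 104 and 94.7 CPM in normoxia. Hypoxia replicate 2 was again the lowest of its group and the only one under a normoxia library. The log2 fold change was 0.20 ± 0.15 (adjusted p = 0.514, edgeR). As the sharing of reads between the b and c forms is unknown, this layout is not a separate observation from that of the b form.

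The proportions of the 5p forms differed between libraries. The a form made up 75.7%, 79.9% and 77.6% of 5p counts in hypoxia replicates 1, 2 and 3 and 81.0%, 83.2% and 80.3% in normoxia. The b form made up 22.5%, 18.5% and 20.7% in hypoxia and 17.5%, 15.6% and 18.3% in normoxia. The c form made up 1.80%, 1.59% and 1.65% in hypoxia and 1.49%, 1.27% and 1.42% in normoxia. The groups did not overlap in any of these shares, narrowly so for the a and b forms, where hypoxia replicate 2 and normoxia replicate 3 nearly met. The shares are parts of 1 total, so they are not separate observations, and they were chosen after the values were seen and given no test. No background rate was computed for such shares; among single entries 26.0% were separated.

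**Figure D2:**
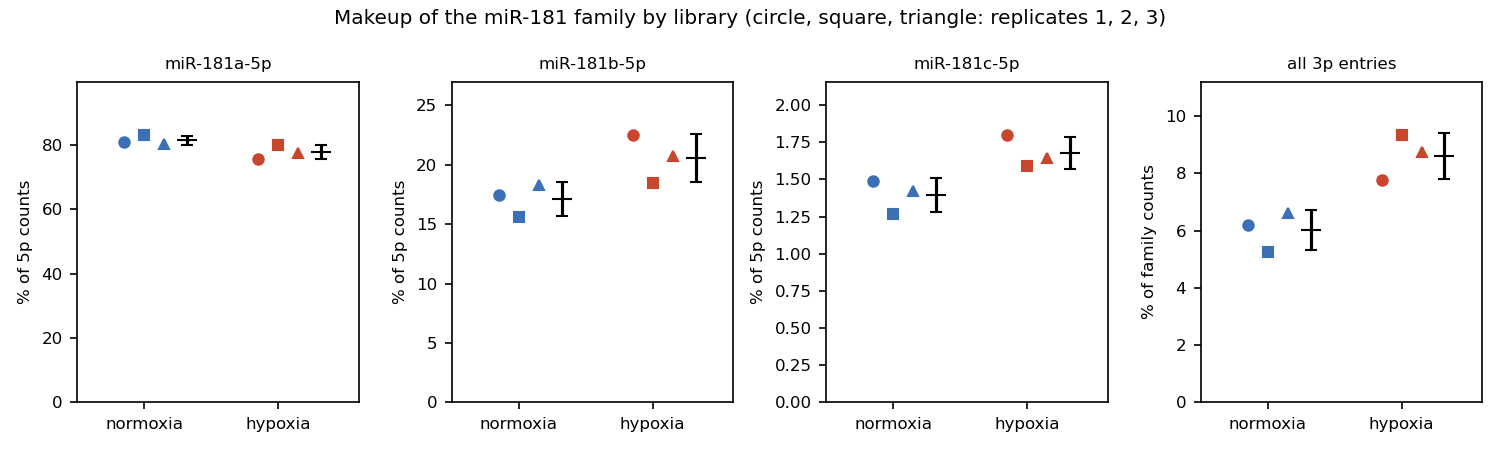
Share of each 5p form in the 5p counts, and of all 3p entries in the family's counts (y axes, %, from 0), in 3 normoxia (blue) and 3 hypoxia (red) libraries with mean and SD. The a form is lower in hypoxia (75.7% to 79.9% against 80.3% to 83.2%), and the 3p share is higher (7.75% to 9.34% against 5.25% to 6.60%).

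On the 3p side, dre-miR-181a-2-3p was the member furthest from equal levels relative to its error. It measured 583, 666 and 691 CPM in hypoxia replicates 1, 2 and 3 and 466, 434 and 450.9 CPM in normoxia. All hypoxia libraries were above all normoxia libraries, as held for 1 of the 7 members and for 26.0% of all tested entries (11.8% in this direction), so 1 separated member is near the background. The means were 647 ± 56.5 and 450.5 ± 16.1 CPM (SD, n = 3 each), 1.44-fold, with a log2 fold change of 0.52 ± 0.12 (SE). The adjusted p of 0.0668 missed the threshold (edgeR, Benjamini-Hochberg). By unadjusted p it was 15th among the 519 tested entries, directly after the 14 called. It passed under DESeq2, limma-voom and no filter on low counts (Benjamini-Hochberg adjusted p = 0.000369, 0.0329 and 0.0245) and without hypoxia replicate 2 (adjusted p = 0.0365, edgeR). Those settings called more entries over the whole table, 41, 22, 58 and 53 in that order, against the 14 reported. Over all 16 alternatives its adjusted p ran from 0.000369 to 0.257 and its log2 fold change from 0.47 to 0.64.

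**Figure D3:**
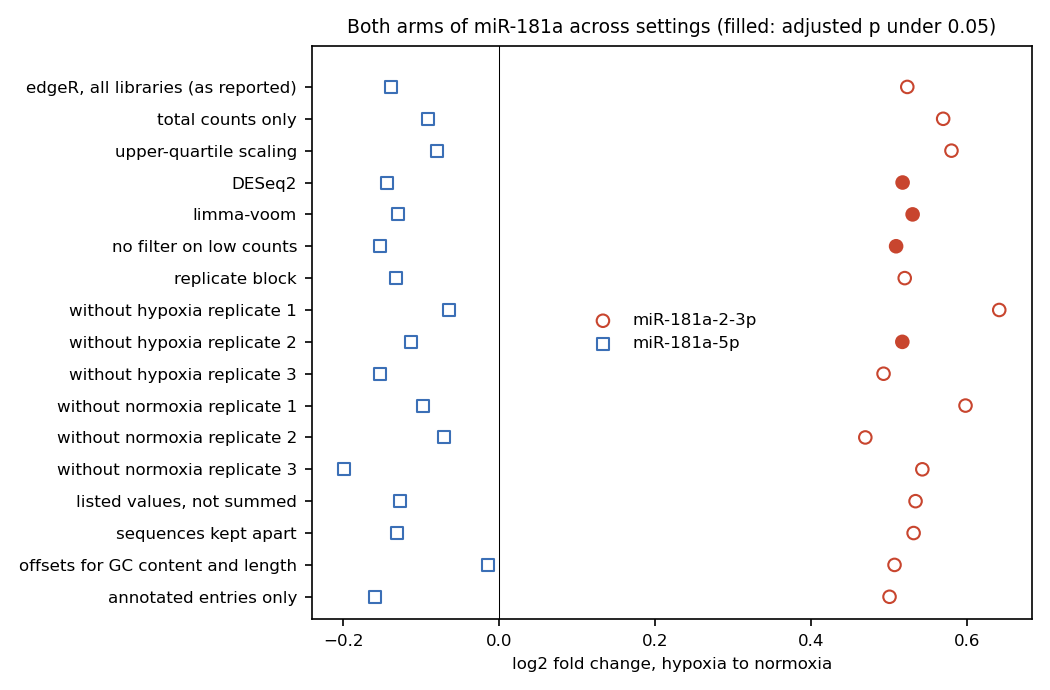
Log2 fold change, hypoxia to normoxia (x axis), of miR-181a-2-3p (red circles) and miR-181a-5p (blue squares) as reported and under 16 alternatives (y axis); filled symbols have an adjusted p under 0.05. The 3p strand stays between 0.47 and 0.64 and is filled in 4 alternatives, and the 5p strand stays between -0.20 and -0.01 and is never filled.

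The other 3p entries were rare, and hypoxia replicate 1, the shallowest library, listed 2 of them at 0. dre-miR-181b-3p had 0, 164 and 51 counts in hypoxia replicates 1, 2 and 3 and 81, 68 and 67 counts in normoxia, or 0, 22.7 and 8.14 CPM against 9.63, 11.6 and 12.2 CPM. Hypoxia held both the highest and the lowest libraries. Its log2 fold change was 0.02 ± 0.71 (adjusted p = 0.989, edgeR), and leaving out hypoxia replicate 1 gave 0.51, while leaving out hypoxia replicate 2 gave -1.14, so the value rests on those libraries. At the mean level of the other 5 libraries, hypoxia replicate 1 would hold 26.4 counts of it. A count of 0 in that library allows up to 1.46 CPM, counting error only. Of 391 entries seen in all the other 5 libraries at a mean of at least 5 CPM there, 10 were at 0 in hypoxia replicate 1. The same count, made in turn for each of the other 5 libraries, was 0.

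cpi-miR-181a-2-3p_R+1, the longer form of the abundant 3p strand, had 10, 23 and 39 counts in hypoxia and 55, 17 and 26 in normoxia. At 4.86, 3.18 and 6.22 CPM against 6.54, 2.90 and 4.73 CPM the groups overlapped throughout (log2 fold change -0.01 ± 0.45, adjusted p = 0.989, edgeR). It made up 0.475% to 1.38% of the counts of both lengths together. ccr-mir-181a-p3 had 0, 24 and 8 counts in hypoxia and 17, 20 and 16 in normoxia, with a log2 fold change of -0.60 ± 0.74 (adjusted p = 0.716, edgeR). Leaving out hypoxia replicate 2 gave -1.67, and leaving out hypoxia replicate 1 gave -0.21.

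Set against each other within a library, which needs no scaling between libraries, the main arms of miR-181a stood in different proportions in each group. There were 9.08, 8.10 and 8.29 counts of dre-miR-181a-5p per count of dre-miR-181a-2-3p in hypoxia replicates 1, 2 and 3, and 12.7, 15.6 and 11.9 in normoxia. Every hypoxia library had the lower ratio. The mean log2 ratio was 3.08 ± 0.09 in hypoxia and 3.74 ± 0.21 in normoxia (SD, n = 3 each), a difference of -0.65. The exact two-sided permutation p was 0.1, the smallest that 3 against 3 can give, and 0.4 after Benjamini-Hochberg adjustment over the 4 arm pairs compared. The a-5p sequence may arise from more than 1 hairpin, so the ratio is between strands and not within a single precursor. The strands also differ in GC content (47.8% for 5p, 54.5% for 3p) and length (23 and 22 nt). A library's trend on either does not cancel in the ratio. In a fit that took up such trends the log2 fold changes were -0.01 (5p) and 0.51 (3p), against -0.14 and 0.52 as reported. The ratio itself was not recomputed that way.

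Among 51 miRNA forms with both arms named and tested, the groups of the 5p to 3p ratio did not overlap for 12 (23.5%), and the 5p to 3p ratio was lower in hypoxia for 8 of these (15.7% of 51). The miR-181a difference was the 8th lowest of 51, a rank over forms not matched by abundance. Its rarer arm averaged 549 CPM. Of the 7 forms with a lower difference, all but miR-22b (127 CPM) had a rarer arm between 1.66 CPM (let-7g) and 13.3 CPM (miR-301c). Whether few counts or the added 0.5 moved these ratios was not tested. Among the 7, the groups did not overlap for let-7g and miR-22b. Outside miR-181 the 49 forms had a median difference of -0.05 with quartiles at -0.47 and 0.27. Names without an arm were left out of this count, and forms share the composition of their libraries.

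**Figure D4:**
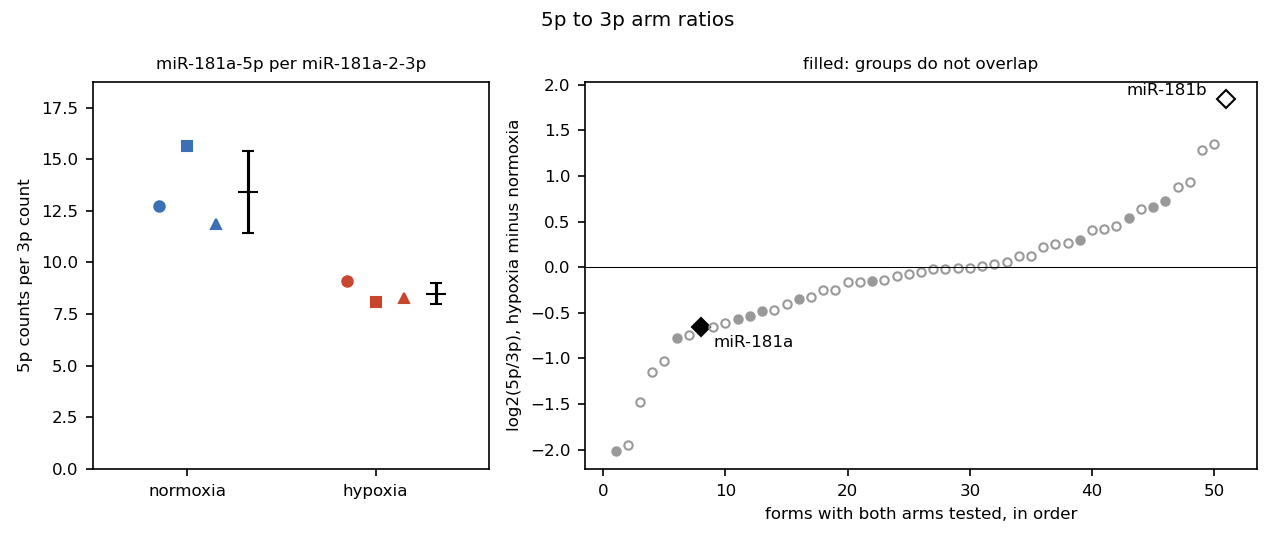
Left, counts of miR-181a-5p per count of miR-181a-2-3p (y axis, from 0) in 3 normoxia (blue) and 3 hypoxia (red) libraries with mean and SD. Right, difference of log2(5p/3p), hypoxia minus normoxia (y axis), for 51 forms in order (x axis), filled where groups do not overlap; miR-181a lies at -0.65, and miR-181b at 1.84 through a 3p count of 0 in hypoxia replicate 1.

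The other arm pairs could not carry such a comparison. For miR-181b there were 132, 109 and 99.4 counts of the 5p strand per 3p count in normoxia, and 54.9 and 186 in hypoxia replicates 2 and 3. In hypoxia replicate 1, with no 3p count, there were at least 1080 per 3p count, taking a floor of 3 counts per library. That bound holds only if the 0 reflects counting error alone, which was not tested. The groups overlapped (exact permutation p = 0.7, Benjamini-Hochberg adjusted p = 0.7), and the log2 difference of 1.84 turned to -0.16 without hypoxia replicate 1. The ratios of dre-miR-181a-5p to ccr-mir-181a-p3 and to cpi-miR-181a-2-3p_R+1 overlapped as well (exact permutation p = 0.4 and 0.7, both 0.7 after Benjamini-Hochberg adjustment). All 3p entries together made up 7.75%, 9.34% and 8.74% of the family's counts in hypoxia replicates 1, 2 and 3 and 6.20%, 5.25% and 6.60% in normoxia. In every library at least 95.8% of these 3p counts were dre-miR-181a-2-3p.

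Other miRNAs tied to the biology of miR-181 were counted in the same fit. Over all tested entries 2.7% were called, 1.54% higher and 1.16% lower in hypoxia, so lists of this size hold few or no calls at that share. Of 13 leukocyte entries (miR-142, miR-146, miR-150, miR-155 and miR-223), 0 were called higher and 1 lower, a miR-146b-3p entry, with a median log2 fold change of -0.26. Of the same 13, 5 were lower and 0 higher in every hypoxia library, where 14.3% of all tested entries were lower. In the marker list that leaves out miR-146, 2 of 7 entries were lower and 0 higher, so the 5 lean on the miR-146 family. One of the 13, dre-miR-146a, had a hypoxia minus normoxia difference of -0.40 ± 0.10 (log2, SE) and missed the threshold (adjusted p = 0.0758, edgeR). The most abundant tested entries of miR-142, miR-150, miR-155 and miR-223 stood at -0.05 ± 0.16, 0.01 ± 0.14, -0.02 ± 0.18 and -0.24 ± 0.17. Of 4 endothelial miR-126 entries 0 were called and 1 was higher in every hypoxia library, with a median of 0.33. One of them, gmo-miR-126-3p_R-1, had a difference of 0.39 ± 0.10 and likewise missed the threshold (adjusted p = 0.0758, edgeR). Another, oni-miR-126, stood at -0.03 ± 0.20. Of 22 entries linked to liver inflammation and fibrosis (miR-21, miR-29, miR-199 and miR-214) 0 were called, with a median of -0.14. Of these, 1 was higher and 2 were lower in every hypoxia library, where 11.8% and 14.3% of all tested entries were. Summed without miR-146, the leukocyte markers miR-142, miR-150, miR-155 and miR-223 overlapped between groups, at 3667 to 4027 CPM in hypoxia and 3552 to 4262 CPM in normoxia.

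The marker lists whose sums were higher in every hypoxia library, as dre-miR-181a-2-3p was, were those of red blood cells and endothelium. No background rate was computed for such sums. The 8 erythrocyte entries (miR-144, miR-451 and miR-486) summed to 7203 to 9174 CPM in hypoxia and 4842 to 5917 CPM in normoxia, with 2 entries higher and 1 lower in every hypoxia library (11.8% and 14.3% of all tested entries). Most of that sum was dre-miR-451, with a mean of 4991 CPM over the 6 libraries and a log2 fold change of 0.60. The 5 endothelial entries summed to 15768 to 17733 and 11829 to 13517 CPM, with 1 entry higher in every hypoxia library, near that background. Most of the endothelial sum was 1 entry, gmo-miR-126-3p_R-1, with means of 15533 CPM in hypoxia and 11848 CPM in normoxia. The means of oni-miR-126 were 880 and 897 CPM. The sums of 2 lists separated the other way, 15 epithelial entries at 2549 to 2956 CPM in hypoxia and 3017 to 3372 CPM in normoxia, and 6 pancreas entries at 1121 to 1398 and 1399 to 1653 CPM. In each of these 2 lists only 1 entry was lower in every hypoxia library, where 14.3% of all tested entries were. Of the families in these 4 lists only miR-141, an epithelial one, was at 0, and the part of these lists in the result was not tested. Hepatocyte markers miR-122, miR-192 and miR-194 were plentiful, as the tissue label has it, at 238955 to 288066 CPM in hypoxia and 278892 to 290082 CPM in normoxia. The sums of these and of the muscle, stromal and neural lists overlapped between groups. These lists also held separated entries. Of 17 hepatocyte, 18 stromal and 9 neural entries 1 each was lower in every hypoxia library, and of 8 muscle entries 1 was higher. Libraries also differed in their trend on GC content, with slopes of 0.10, -0.06 and 0.11 log2 units per 10 points of GC in hypoxia replicates 1, 2 and 3 and of -0.01, -0.08 and -0.06 in normoxia. Slopes on length were -0.01, -0.07 and -0.03 log2 units per nt in hypoxia replicates 1, 2 and 3. In normoxia replicates 1, 2 and 3 they were 0.08, 0.04 and -0.02. When trends on GC content and length were taken up as offsets, the log2 fold change of dre-miR-181a-2-3p was 0.51, that of dre-miR-181a-5p -0.01 and that of dre-miR-181b-5p_R+1 0.33.

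The entries most like dre-miR-181a-5p were sought by Pearson's r of log2 CPM over the 6 libraries, among 398 annotated entries outside the family. They were dre-miR-30c-5p_R+1 (r = 0.94), ccr-miR-19d_1ss23AT (0.93), dre-miR-190a_R+1 (0.87), gmo-miR-100b-5p_R-2_2ss14AG21TC (0.83) and dre-miR-26b_L+1R-1_1ss22TC (0.81). The other members had r of -0.50 to 0.42, among them -0.24 for dre-miR-181b-5p_R+1, -0.18 for dre-miR-181c-5p_R+1 and -0.50 for dre-miR-181a-2-3p. With 6 libraries that share depth and composition, these r are descriptions of the libraries only.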

How the data were processed

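Small RNA of liver vesicles was sequenced from 6 libraries on a NovaSeq X Plus, with reads truncated to single ends, per the labels' protocols. The authors deposited 1 table of estimated counts, unscaled per the file headers. For the aligner, caller, build, annotation rules and filters, the record used here is silent, and genome positions were not analysed here. Of nonzero values, 70.0% were within 1e-06 of a whole number as listed and 88.9% after listings of 1 sequence were summed. In 18 cases sequences whose names give the same precursor had identical values and were joined, leaving 841 entries, whose counts were rounded.

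Totals were 2038282 counts in hypoxia replicate 1 and 5572627 to 8497134 in the other 5 libraries. Hypoxia replicate 1 had 462 entries detected against 643 to 725. Replicates differed beyond sampling noise (the smallest chi-square, divided by its degrees of freedom, was 42.7). No molecular identifiers are mentioned, so floors cover counting error only, and adapter ligation can differ between sequences.

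Entries were filtered with filterByExpr, scaled by TMM and tested with edgeR 4.0.16 (glmQLFit, glmQLFTest) on 519 entries, without a block, with Benjamini-Hochberg adjustment over all of them, which every adjusted p of an entry refers to unless another tool is named. SE is the absolute log2 fold change over the square root of F. CPM uses TMM-scaled totals. Arm ratios added 0.5 to each count and were tested by exact permutation (scipy 1.17.1). DESeq2 1.42.0 and limma 3.58.1 were alternatives. The fits were tested on simulated data. The members and lists were chosen with earlier results of these data known. Named were all tested members, called entries of the lists and the 5 entries most like dre-miR-181a-5p. Outside that plan, the entries most like dre-miR-181a-2-3p, some forms of the arm comparison and predicted entries close to members are named too. Also named, though not called, were dre-miR-146a, gmo-miR-126-3p_R-1 and oni-miR-126. They belong to a planned set, the most abundant tested entries of each listed family. From the rest of that set, only the differences of the most abundant miR-142, miR-150, miR-155 and miR-223 entries are printed here. None of the set was called.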

Additional observations from a re-analysis of the deposited data

How the results depend on the processing

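The count of called entries, 14 as reported, was 5 with total counts only, 5 with upper-quartile scaling, 41 with DESeq2, 22 with limma-voom, 58 with no filter on low counts, 3 with sequences kept apart and 3 with GC and length offsets. It lay at 0 to 53 with 1 library left out (0 without normoxia replicate 2, where 73 had an unadjusted edgeR p under 0.05, and 53 without hypoxia replicate 2). dre-miR-181a-2-3p passed at log2 fold changes of 0.52 with DESeq2, 0.53 with limma-voom and 0.51 with no filter, and ranged from 0.47 to 0.64 with 1 library left out. dre-miR-181b-3p, at 0.02, turned to -0.12 with DESeq2, -0.12 with limma-voom, -0.00054 with no filter and -0.017 with annotated entries only, and ranged from -1.14 to 0.51 with 1 library left out. cpi-miR-181a-2-3p_R+1, at -0.01, turned to 0.037 with total counts only, 0.046 with upper-quartile scaling and 0.065 with the offsets, and ranged from -0.29 to 0.36. The cause was not tested. With 1 library left out, the log2 arm difference of miR-181a to dre-miR-181a-2-3p ranged from -0.74 to -0.54, that to the cpi form from -0.45 to 0.22 and that of miR-181b from -0.16 to 3.28. The family, 5p and 3p totals moved by less than their spread in all 8 alternatives run for each. The log2 difference of the family total, at -0.024, turned to 0.021 with unscaled totals, 0.014 with listed values not summed and 0.045 without normoxia replicate 2. That of the 5p total, at -0.065, turned to 0.010 without normoxia replicate 2. That of the 3p total stayed between 0.45 and 0.58.

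The labels number replicates 1 to 3 in both groups, but same-numbered libraries did not deviate together (r = 0.09, -0.03 and 0.21 over 328 entries), so the numbers were not taken as pairs. With the replicate block 5 entries were called, dre-miR-181a-2-3p stood at 0.52 without passing, dre-miR-181b-3p at -0.54 and cpi-miR-181a-2-3p_R+1 at 0.048, and the arm differences were unaffected by construction. Depth sets the floor for the rare 3p entries, with 3 counts corresponding to 0.357 to 1.46 CPM across libraries. For dre-miR-181b-3p, hypoxia replicate 1 would hold 26.4 counts at the mean of the other 5 libraries. The reason for its listed 0 was not tested.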

Other observations

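The entries most like dre-miR-181a-2-3p by Pearson's r of log2 CPM over the 6 libraries, a search added after its values were seen, were dre-miR-210-5p_1ss20TC (r = 0.95), dre-miR-451 (0.94), dre-miR-2188-5p (0.92), dre-miR-23a-3p_R-1 (0.90) and gmo-miR-126-3p_R-1 (0.89). miR-210 is the best known hypoxia-induced miRNA in mammals, miR-451 is abundant in red blood cells and miR-126 in endothelium. Their log2 fold changes, hypoxia to normoxia, were 1.34, 0.60, 0.47, 0.18 and 0.39. Because dre-miR-181a-2-3p was higher in every hypoxia library, a search over the same libraries favours entries that rise in hypoxia. These r therefore describe the libraries only and add nothing to the comparison of groups.

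Further predicted entries resembled 3p members without carrying the name. PC-3p-199026_6, with 6 counts in normoxia replicate 1 and 0 elsewhere, differs from dre-miR-181a-2-3p at 5 of 22 bases, among them T5C and C6T in the seed. PC-3p-212579_5, with 5 counts in hypoxia replicate 2 and 0 elsewhere, differs from dre-miR-181b-3p at 5 of 22 bases, among them A4G and A8G in the seed. Both were too rare to test.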
